A study of Mus musculus with 10 samples.

Results

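The transcriptome of splenic CD8+ conventional type 1 dendritic cells (CD8+ cDC1) was described in wild-type mice at steady state. The members were the 5 libraries labelled Ppef2+/+, 1 for each of sorts 1 to 5, out of 10 libraries in the study, and all 10767 genes of the deposited table were ranked by their mean over these 5 libraries. The Ppef2+/+ mice were on a C57BL/6 background, untreated and 8 to 13 weeks old, and belonged to a study of a Ppef2 gene-trap line that was made with EUCOMM JM8A3.N1 embryonic stem cells and crossed with C57BL/6 mice. Whether they were littermates of the Ppef2−/− mice is not given in the sources used here. Every library was made from the poly-A RNA of CD8+ cDC1 of 3 pooled spleens, sorted by flow cytometry as live MHCII+CD11c+CD11b−CD8+ cells, so that a library averages over mice. Per the study's methods, cell suspensions of spleens were made by warm digestion with DNase I and Liberase. The other 5 libraries came from Ppef2−/− mice and the genotypes are not compared here.

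cDC1 are the dendritic cells that take up dying cells and present their antigens on MHC class I to CD8+ T cells, a process called cross-presentation. Their development depends on the transcription factors IRF8, BATF3 and ID2 and on the growth factor receptor FLT3. They are recognized by the chemokine receptor XCR1 and by the lectin CLEC9A, which binds actin exposed on dead cells, and in mouse spleen they carry CD8α and, in part, the integrin CD103.

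Values are given on 2 scales. A normalized count is the deposited value of a gene in a library. The level is the mean of the 5 normalized counts divided by the length of the longest annotated transcript and scaled so that all levels add up to 1000000 (ppm), and only levels are compared between genes. A level could be given for 10688 genes, with a median of 24.2 ppm. The mean of each sort had been removed from the deposited values, so that the spread between deposited columns is not the spread between sorts. For the 9627 genes with all values under 1000, whole reads were calculated back, which restores the differences between sorts. Values of these genes are given with sort means put back, and those of more abundant genes as deposited.

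All 6 markers of cDC1 were among the genes with a level above the median. Irf8 had the highest level of them (2066 ppm, rank 61 of all genes), with deposited normalized counts of 13288, 13819, 13143, 13573 and 13981 in sorts 1 to 5. Cd8a followed at 792 ppm with 5816, 5610, 5710, 5667 and 5762, and Clec9a at 570 ppm with 4343, 4311, 4392, 4016 and 4554 deposited normalized counts. As the sort means had been removed, these values do not show how much the libraries differed. Xcr1 had a level of 360 ppm and 3754, 3663, 3668, 3543 and 3850 deposited normalized counts. Batf3 stood at 224 ppm with 409, 424, 404, 375 and 452 normalized counts with sort means put back (SD 28.1, n = 5). Itgae, which encodes CD103, was the lowest of the markers, at 60.8 ppm and rank 2577. Its normalized counts with sort means put back were 572, 518, 449, 498 and 658 (SD 79.8, n = 5). The median level of the 6 markers was 465 ppm, 19.2 times the median of all genes. Only Batf3 and Itgae could be followed per library, and both had reads in all 5 libraries.

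The sequences before the transcription starts of these marker genes are shown because they differed in base composition and in the motif letters they held. RefSeq windows on GRCm38.p6 were available for 5 of the 6 markers, and the 250 bases upstream of the start are printed for 4 of them, with matches on either strand to the TATA box letters TATAAA, the CAAT box letters CCAAT and the GC box letters GGGCGG in capitals. They lie at chr9:123862030-123862279 on the minus strand for Xcr1, at chr6:129408612-129408861 on the plus strand for Clec9a, at chr1:191098164-191098413 on the plus strand for Batf3, and at chr8:120736108-120736357 on the plus strand for the first of 2 windows of Irf8.
Xcr1: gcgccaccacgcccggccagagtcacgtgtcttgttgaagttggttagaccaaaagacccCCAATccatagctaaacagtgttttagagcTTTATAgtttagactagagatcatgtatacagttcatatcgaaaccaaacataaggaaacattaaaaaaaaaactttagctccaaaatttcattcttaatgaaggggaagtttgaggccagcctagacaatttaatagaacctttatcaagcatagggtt
Clec9a: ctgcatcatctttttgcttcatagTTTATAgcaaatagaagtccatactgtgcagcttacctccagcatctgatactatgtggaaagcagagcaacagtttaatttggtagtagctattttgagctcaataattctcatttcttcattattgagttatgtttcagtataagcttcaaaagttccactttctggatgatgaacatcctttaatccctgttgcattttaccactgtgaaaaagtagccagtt
Batf3: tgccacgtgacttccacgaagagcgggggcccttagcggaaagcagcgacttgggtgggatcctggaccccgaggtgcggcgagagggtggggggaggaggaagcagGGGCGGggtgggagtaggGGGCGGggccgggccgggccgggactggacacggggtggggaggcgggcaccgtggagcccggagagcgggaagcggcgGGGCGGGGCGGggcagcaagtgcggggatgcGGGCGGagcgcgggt
Irf8: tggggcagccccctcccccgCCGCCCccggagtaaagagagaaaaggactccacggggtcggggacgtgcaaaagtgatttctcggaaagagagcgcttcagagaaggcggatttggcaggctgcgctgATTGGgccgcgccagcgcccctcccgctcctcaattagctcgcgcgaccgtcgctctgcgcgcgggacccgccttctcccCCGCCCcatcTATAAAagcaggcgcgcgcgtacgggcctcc
The windows of Xcr1 and Clec9a had a GC content of 38.8% and 35.6% and held no GGGCGG. Their matches to TATAAA lay on the strand opposite to the gene. They were 160 to 155 bases before the start in Xcr1 and 226 to 221 bases in Clec9a. The window of Batf3 had a GC content of 76.0% and 5 matches to GGGCGG. The first window of Irf8, with 67.2% GC, held TATAAA at 31 to 26 bases before the start as well as 2 matches to GGGCGG. The second window of Irf8, with 54% GC, held none of the 3 motifs. The window of Cd8a (chr6:71373177-71373426, plus strand, 42.8% GC) held none of the 3 motifs. In windows of 300 bases, which run 50 bases past the start, GGGCGG was found in 35.2% of the 22862 annotated genes with exactly 1 window, CCAAT in 38.2% and TATAAA in 14.8%. These matches are letters in a window, not binding sites.

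Other genes known from cDC1 were also expressed. All 24 genes of a list of cDC1-associated genes had a row in the table and 23 had a level above the median of all genes, with a list median of 289 ppm. Naaa, a lysosomal amidase, had the highest level (2006 ppm), followed by Wdfy4, which is needed for cross-presentation of cell-associated antigen (1221 ppm), Id2 (839 ppm) and Ifi205 (802 ppm). Flt3 reached 585 ppm, the heat-stable antigen Cd24a 524 ppm, the inhibitory receptor Btla 449 ppm and the adhesion molecule Cadm1 278 ppm. The lowest members were Zbtb46, a transcription factor of conventional DCs (58.7 ppm), Ppef2 (29.6 ppm) and the orphan receptor Gpr33 (16.5 ppm), the member below the median. Zbtb46 gave 898, 793, 592, 580 and 728 normalized counts with sort means put back. Ppef2, a calcium-binding phosphatase, gave 290, 198, 143, 126 and 227 (SD 66.4, n = 5). In both genes sorts 3 and 4 were the lowest libraries, and for Ppef2 the highest library was 2.31 times the lowest.

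**Figure D1:**
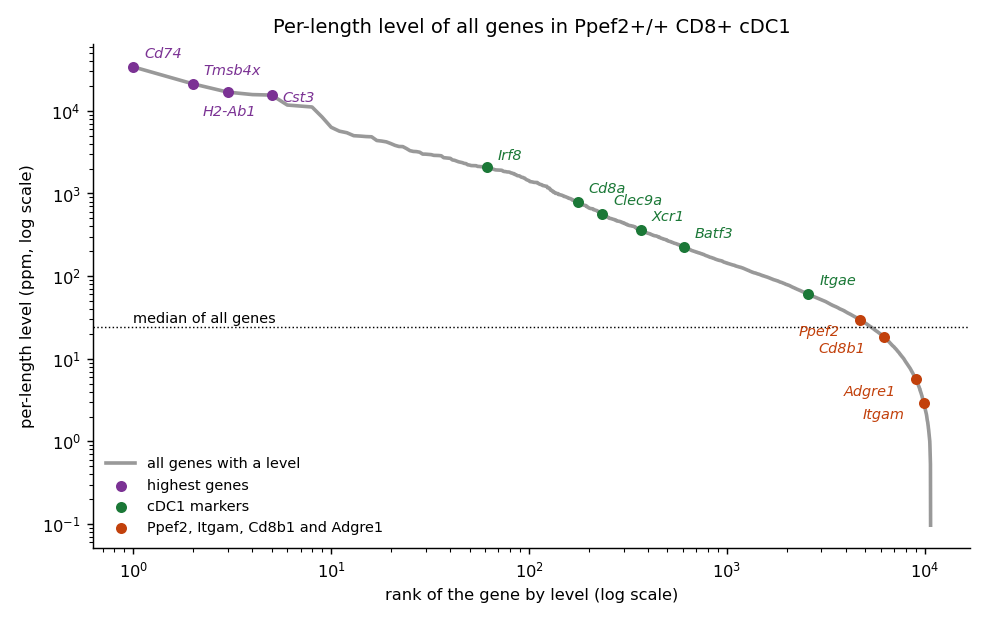
Per-length level (ppm, log scale) of all 10688 genes with a level against their rank (log scale) in the 5 Ppef2+/+ libraries. Points mark the highest genes, the 6 cDC1 markers and 4 genes of lower level, and the dotted line is the median of 24.2 ppm. The markers lie between rank 61 (Irf8) and rank 2577 (Itgae), whereas Itgam lies at 2.91 ppm.

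The gate was visible in the mRNA. The MHC class II genes H2-Ab1, H2-Aa and H2-Eb1 had levels of 16862, 15736 and 11138 ppm and Itgax, which encodes CD11c, had 688 ppm. Itgam, which encodes CD11b and was gated out, had a level of 2.91 ppm. Its normalized counts with sort means put back were 21.9, 35.4, 33.1, 27.7 and 38.8. Cd8b1, the partner of Cd8a in the CD8αβ heterodimer of T cells, had 18.5 ppm compared to 792 ppm of Cd8a. These levels describe the sorted cells and are no test of the gate.

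The transcriptome was dominated by few genes. Cd74, the invariant chain that guides MHC class II to the endosome, was the most abundant mRNA with 34046 ppm, 1407 times the median level. Its deposited normalized counts were 109146, 112448, 112838, 105802 and 113078 in sorts 1 to 5. It alone made up 3.4% of the summed level, the 10 highest genes 15.2%, the 100 highest genes 37.8% and the 1000 highest genes 69.2%. Thus 241 genes held 50% of the summed level and 3876 genes 90%. In total 139 genes exceeded 1000 ppm, 1543 exceeded 100 ppm and 7826 exceeded 10 ppm, whereas 101 genes lay under 1 ppm. Division by length decided part of this order, since 59 genes were in the top 100 both by level and by normalized count.

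Among the 10 highest genes were 4 genes of the MHC class II pathway (Cd74, H2-Ab1, H2-Aa and H2-Eb1) and 3 of the actin cytoskeleton. The latter were Tmsb4x (21235 ppm), which encodes the actin-sequestering thymosin β4, as well as Actb (8408 ppm) and Actg1 (6327 ppm). The others were the protease inhibitor Cst3 (cystatin C, 15526 ppm), the elongation factor Eef1a1 (11765 ppm) and the lysosomal protein precursor Psap (11434 ppm). Further genes of the top 25 were the translationally controlled Tpt1 (5679 ppm), B2m (4886 ppm), the ferritin light chain Ftl1 (4379 ppm), the lysosomal thioesterase Ppt1 (3707 ppm) and the AP-1 subunit Fos (3694 ppm). Heat shock genes were there too, with Hspa8 at 5007 ppm, Hspa1b at 4952 ppm and Hspa1a at 4309 ppm. Hspa1a and Hspa1b are nearly identical copies, so that the split of reads between them is uncertain. The rest of the top 25 were genes of ribosomal proteins, led by Rplp1 (5437 ppm).

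Grouped by function, 10 of 32 gene lists made up at least 1% of the summed level each. Some lists share genes (Fos is in the AP-1 list and in that of transcription factors, Ctss in 2 lists), so their shares do not add up. Cytosolic ribosomal proteins made up 13.99%, with 81 of 84 genes in the table, all of them above the median of all genes. MHC class II presentation made up 8.30% with 14 genes and the actin cytoskeleton 5.69% with 29 genes. Translation factors made up 2.63%, heat shock chaperones 2.37%, AP-1 and immediate early genes 2.15%, transcription factors 2.11% and cathepsins and cystatins 1.80%, most of the last in Cst3. MHC class I presentation and the respiratory chain with ATP synthase made up 1.48% and 1.47%. None of the 13 protein-coding genes of the mitochondrial genome had a row in the table analysed here.

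**Figure D2:**
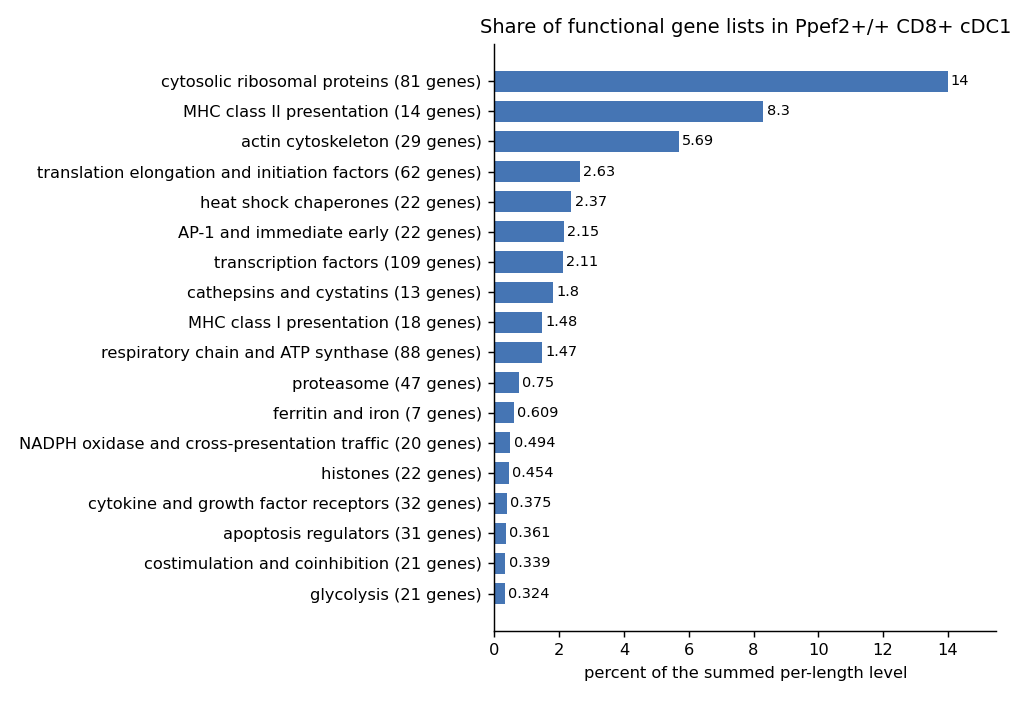
Share of the summed per-length level (percent) held by the 18 functional gene lists with the highest shares in the 5 Ppef2+/+ libraries, with the number of genes in the table in brackets. Bars start at 0 and lists may share genes. Cytosolic ribosomal proteins (13.99%) and MHC class II presentation (8.30%) hold the largest shares.

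Antigen presentation genes were found over a wide range of levels. Besides the chains named above, all 14 genes of MHC class II presentation were above the median of all genes, with a list median of 777 ppm. The peptide loading factors H2-DMb1 and H2-DMa had 935 and 665 ppm, and the modulators of loading H2-Oa and H2-Ob 486 and 389 ppm. The thiol reductase Ifi30 (996 ppm), the invariant chain protease Ctss (889 ppm) and the transactivator Ciita (488 ppm) were expressed as well. The ubiquitin ligase March1, which removes MHC class II from the surface, had 180 ppm. In MHC class I presentation all 18 genes lay above the median, with a list median of 294 ppm. B2m was followed by H2-K1 (2469 ppm), H2-D1 (2420 ppm), the chaperone Calr (1169 ppm) and Pdia3 (821 ppm), and the peptide transporter genes Tap1 and Tap2 had 499 and 252 ppm. Class I heavy chain genes are alike in sequence, so that their single levels are uncertain.

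In the proteasome, which makes the peptides for class I, 41 of 47 genes in the table were above the median (list median 109 ppm). The highest were the activator subunits Psme1 (972 ppm) and Psme2 (463 ppm) and the immunoproteasome subunits Psmb8 (622 ppm) and Psmb9 (560 ppm). Their counterparts in the constitutive proteasome, Psmb5 and Psmb6, had 170 and 209 ppm. The third immunoproteasome subunit, Psmb10, had 130 ppm compared to 238 ppm of its counterpart Psmb7. In this pair the order was thus the other way round. Of 20 genes of the NADPH oxidase and the traffic of cross-presentation, 18 lay above the median (list median 150 ppm). After Wdfy4 came the small GTPase Rab43 (706 ppm), the oxidase subunit Cyba (672 ppm), the translocon subunit Sec61b (401 ppm) and Vcp (324 ppm), whereas the oxidase subunit Cybb had 62.5 ppm. Cathepsins were led by Ctss, Ctsz (514 ppm) and Ctsh (403 ppm), while Ctsd had 33.6 ppm and Ctsl 4.47 ppm.

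Receptors that sense microbes were expressed selectively. Unc93b1, the chaperone that brings nucleic acid-sensing TLRs to the endosome, had 1033 ppm. The TLRs with the highest levels were Tlr11 (310 ppm) and Tlr12 (106 ppm), receptors for profilin of protozoa, and Tlr3 (194 ppm), the receptor for double-stranded RNA. Tlr9 and Tlr13 had 55.5 and 50.2 ppm and Tlr2 34.9 ppm. Tlr5 (6.18 ppm), Tlr7 (4.76 ppm) and Tlr4 (3.28 ppm) were well below the median of all genes, and Tlr8 had no row in the table analysed here. A gene without a row either had a mean under 10 normalized counts in both genotypes or was not counted under that name, which cannot be told apart. Among 12 cytosolic sensors of nucleic acids, the DNA sensor Aim2 was highest (120 ppm), and the RNA sensor Ddx58 (RIG-I) was lowest (2.02 ppm). Among C-type lectins Clec9a was followed by Clec12a (156 ppm), Clec2d (70.7 ppm), Cd207 (69.0 ppm) and Clec7a (65.7 ppm). Ly75, which encodes DEC-205, had 60.7 ppm, whereas 8 of 25 had no row. Of the receptors for dead cells and lipids, Havcr2 (580 ppm), Cd36 (284 ppm) and Cd68 (284 ppm) were highest, and Axl had 6.001 ppm while Mertk and Tyro3 had no row.

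Genes for signals between cells were present in part. Of 35 cytokine and growth factor receptor genes, 32 were in the table and 23 were above the median, led by Ifngr1 (961 ppm), Flt3, the GM-CSF receptor chain Csf2ra (478 ppm) and Il10ra (346 ppm). Of 39 cytokine genes only 17 were in the table. Il1b had the highest level (402 ppm), followed by Tgfb1 (282 ppm), the IL-12 p40 gene Il12b (98.2 ppm), Il16 (94.6 ppm) and Ebi3 (73.4 ppm). Il6 had 1.24 ppm, and Il12a, Il10, Il23a and Il27 had no row. Of 39 chemokine genes 11 were in the table, with Cxcl9 (298 ppm), Cxcl16 (194 ppm), Ccl5 (190 ppm) and Ccl4 (138 ppm) at the top. The highest chemokine receptors were Xcr1, Ccr7 (290 ppm), which guides DCs to lymph nodes, and Cxcr4 (235 ppm). Among integrins, the partners of CD11c and CD103, Itgb2 and Itgb7, had 350 and 198 ppm.

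Genes of costimulation were unequal in level. Cd83 had 815 ppm, the inhibitory receptors Havcr2 and Btla were given above, and Cd86 had 319 ppm, while Cd40 (46.3 ppm) and Cd80 (29.4 ppm) lay closer to the median of all genes. Cd274, which encodes PD-L1, had 73.4 ppm and Pdcd1lg2, which encodes PD-L2, had 4.10 ppm. In total 14 of the 21 genes in the table were above the median. Interferon-stimulated genes had a lower list median than all genes (15.95 ppm). Of these, 12 of 30 genes in the table were above the median, with Bst2 (156 ppm) and Ifitm3 (131 ppm) among the higher ones and Ifit1 (1.71 ppm) and Oas3 (1.24 ppm) as the lowest.

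Immediate early genes, whose transcripts accumulate within minutes of many stimuli, were among the most abundant mRNAs. Of 23 genes in the list 22 were in the table and 21 were above the median, with a list median of 857 ppm. Fos was the highest, with 17949 normalized counts on average, followed by the phosphatase Dusp1 (2071 ppm), Fosb (1920 ppm), Jun (1914 ppm), the mRNA-destabilizing Zfp36 (1694 ppm), Atf3 (1685 ppm) and Junb (1362 ppm). The AP-1 member Fosl2 was the lowest (14.4 ppm), and Fosl1 had no row. All 22 heat shock chaperone genes were above the median as well, from 120 ppm (Hspa9) to 5007 ppm (Hspa8). The spleens had been digested and the cells sorted before RNA was taken. The part of this handling in the levels of immediate early and heat shock genes was not tested.

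Of 124 transcription factor genes 109 were in the table and 81 of them lay above the median, with a list median of 57.7 ppm. Apart from AP-1 genes and Nr4a1 (912 ppm), the highest were Irf8, Klf6 (877 ppm), Id2, Klf2 (838 ppm), Irf5 (485 ppm), Atf4 (367 ppm), Spi1, which encodes PU.1 (356 ppm), Mycl, a MYC family member known to be used by DCs (315 ppm), Klf4 (264 ppm) and Batf3. Irf4, which is known for cDC2, had 43.9 ppm and thus a level far below that of its relative Irf8. Factors of other lineages such as Gata1, Pax5, Ebf1 and Tbx21 had no row.

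Genes of cell survival and division were also expressed. The BH3-only gene Pmaip1, which encodes NOXA, had 869 ppm, and its anti-apoptotic counterpart Mcl1 had 499 ppm. Of the A1 genes, Bcl2a1d, Bcl2a1b and Bcl2a1a had 348, 326 and 217 ppm, but these copies are nearly identical and their split is uncertain. Bcl2l11, which encodes Bim, had 26.8 ppm, Bcl2l1 11.4 ppm and Bcl2 3.97 ppm. All 32 genes of cell cycle and replication were in the table and 17 were above the median, with Pcna at 299 ppm and Mki67 at 60.0 ppm. Among the catalytic subunits of the PPP family of phosphatases, to which Ppef2 belongs, Ppp1ca was the highest (568 ppm). Ppef2 was number 10 of the 12 in the table, above Ppp6c (26.5 ppm) and Ppp3cc (6.63 ppm), and its relative Ppef1 had no row.

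Markers of other cell types were sparse, but not all were low. In sorted bulk RNA, few cells of another type and little RNA per cell cannot be told apart. Of 15 B cell genes 4 were in the table, all below the median, with Ms4a1 at 20.03 ppm and Cd79a and Pax5 without a row. Of 16 T cell genes 3 were in the table, all below the median, and Cd3e, Cd3d and Cd3g had no row. Neutrophil genes (2 of 13, none above the median), platelet genes (3 of 10, none) and genes of endothelium and stroma (3 of 14, with Pecam1 at 51.2 ppm) were as sparse. The macrophage and monocyte list had 15 of 20 genes in the table and a median of 12.04 ppm. Cd68 and Lyz2 (267 ppm) were high, whereas Adgre1, which encodes F4/80, had 5.61 ppm, C1qa, C1qb and C1qc had 10.88, 12.04 and 8.86 ppm, and Mertk, Marco, Siglec1, Timd4 and Fcgr1 had no row.

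The lists of the DC types closest to cDC1 had more members in the table. Of 14 cDC2 genes 12 were in the table and 7 were above the median, with a list median of 32.3 ppm. Klf4 and Clec12a were the highest, followed by Irf4, Cd209a (38.9 ppm) and Sirpa (37.6 ppm), while Clec10a had 2.98 ppm, Clec4a4 6.70 ppm and Mgl2 no row. Of 17 pDC genes 14 were in the table and 7 were above the median, with a list median of 24.0 ppm. Bst2, Irf7 (120 ppm) and Lag3 (73.1 ppm) led the list, and Siglech had 29.6 ppm with 159, 165, 129, 145 and 186 normalized counts with sort means put back. Of 11 NK cell genes only the receptor genes Klrk1 (75.3 ppm) and Klrd1 (61.1 ppm) were in the table, and Ncr1, Klrb1c, Prf1 and Eomes had no row. Of the list of eosinophils, basophils and mast cells the receptor gene Kit reached 162 ppm, and Fcer1a, Ms4a2 and Cpa3 had no row. Globin genes were the erythroid genes with rows, with Hba-a1 and Hba-a2 at 44.2 and 39.5 ppm. Both encode the same α-globin, so that their split is uncertain.

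**Figure D3:**
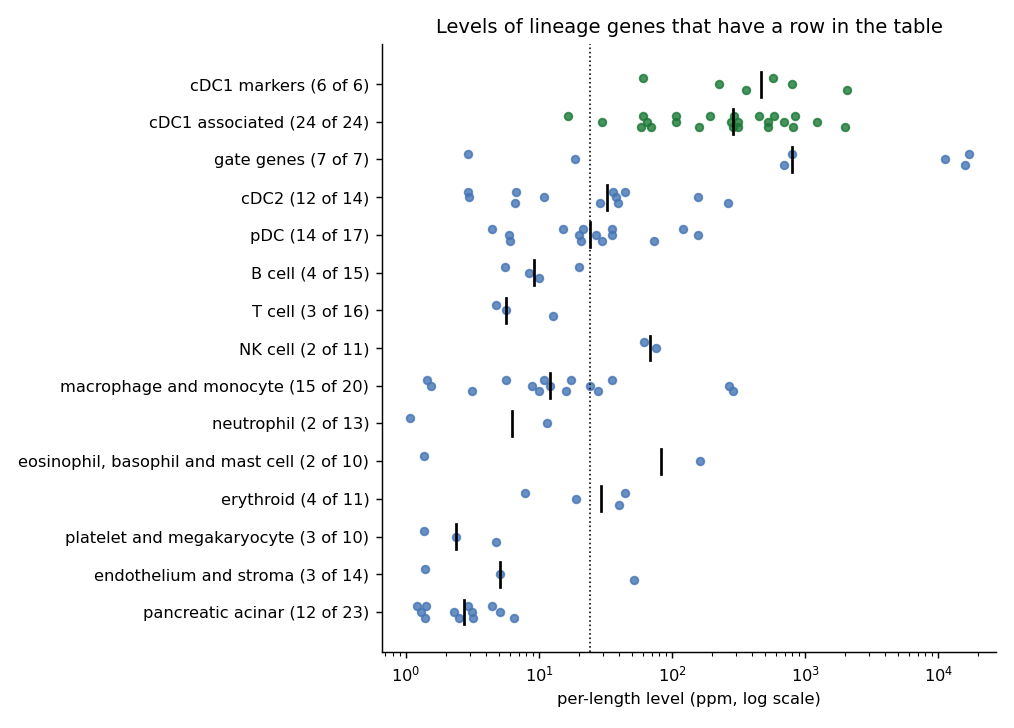
Per-length level (ppm, log scale) of every gene with a row in the table, by lineage list, in the 5 Ppef2+/+ libraries. Each point is a gene, black bars are list medians, the dotted line is the median of all genes (24.2 ppm), and brackets give genes in the table of genes in the list. The cDC1 lists have medians of 465 and 289 ppm, whereas the B cell, T cell and neutrophil genes with rows all lie below 24.2 ppm.

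Over the whole genome, 10404 of 21924 protein-coding genes (47.4%) had a row, and they held 97.04% of the summed level. Some families used by all cells were complete, with 49 of 49 Mrpl genes, 30 of 30 Med genes and 28 of 28 Polr genes, and others nearly so, with 54 of 55 Eif genes and 41 of 44 Rps genes. Of the genes named Rpl, 46 of 54 had a row. Zinc finger genes named Zfp were frequent but low (284 of 394, median 7.91 ppm). Olfactory receptors (3 of 1134), vomeronasal receptors (0 of 330), keratins (2 of 53) and cytochromes P450 named Cyp (10 of 100) were mostly without a row. Chromosome X had 34.6% of its coding genes in the table, compared to 38.3% to 55.2% for the autosomes. On chromosome Y 4 genes had a row, among them Ddx3y (84.7 ppm).

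Pseudogenes and long non-coding RNAs were a small part. The highest non-coding genes were the processed pseudogenes Gm15772 (3212 ppm), Gm12191 (2715 ppm) and Rpl34-ps1 (2299 ppm), as well as Gm1821 (2112 ppm) and the nuclear RNA Malat1 (1767 ppm, 28444 normalized counts). Rpl34, the parent gene of Rpl34-ps1, had only 40.4 ppm, and Rpl30 and Gapdh also had low levels for their kind, 58.2 and 82.4 ppm. How reads that match a gene and its processed copy were assigned is not given in the sources used here, so the levels of such genes are uncertain.

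The spread between sorts was then described in genes with whole reads. The reads of these genes added up to 1509096, 1512847, 1396295, 2273524 and 2065693 in sorts 1 to 5, so that sort 3 was the shallowest and sort 4 the deepest. In the 7334 genes with a mean of at least 50 normalized counts, the SD between sorts was 11.7% of the mean in the median gene, compared to 7.73% expected from counting alone. The deposited values of these genes had a median of 6.99%, and in 6509 genes (88.8%) they showed a smaller spread than with sort means put back. The spread fell with abundance, from a median of 36.3% in genes with a mean of 10 to 25 normalized counts to 7.71% in genes with a mean of 500 to 1000. In 459 genes (6.26%) the highest library was more than 2 times the lowest, and 59 genes had a spread over 50%. In 1325 genes (18.1%) the spread was below that of counting. In most genes the libraries of the 5 sorts thus differed by less than 2 times.

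**Figure D4:**
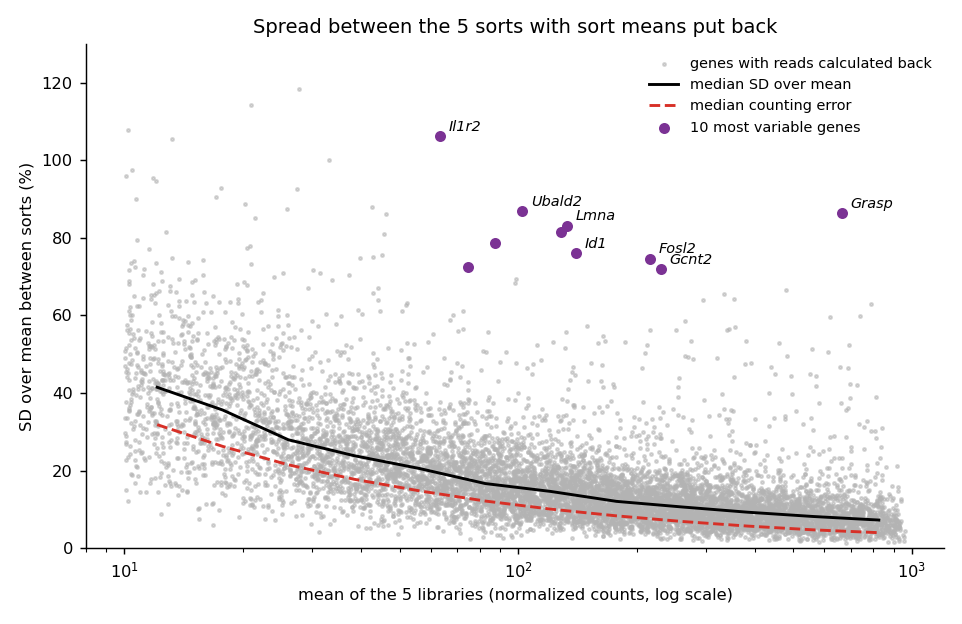
SD over mean between the 5 Ppef2+/+ sorts (percent, sort means put back) against the mean normalized count (log scale) for 9503 genes with whole reads. The black line is the median, the dashed line the median expected from counting, and 3 genes above 130% are not drawn. The 10 most variable genes with a mean of at least 50 normalized counts lie between 72.0% (Gcnt2) and 106% (Il1r2), far above both lines.

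The genes that varied most shared an order of the sorts. Sorts 3 and 4 were the highest libraries in 77 of the 100 most variable genes, a pattern noticed after the values were seen. Among all 7334 genes this held for 16.6%, and for the other pairs of sorts the share was 6.98% to 14.5%. Il1r2, the decoy receptor for IL-1, was the most variable gene, with 6.85, 16.4, 156, 113 and 23.9 normalized counts in sorts 1 to 5 with sort means put back. Lmna, which encodes nuclear lamin A and C, gave 21.9, 58.6, 283, 215 and 87.6. In both genes sorts 3 and 4 lay above all others and sort 1 was the lowest. Grasp, a scaffold protein of receptor traffic, gave 142, 281, 1372, 1195 and 328. Its deposited values (661, 674, 676, 696 and 611) did not show this difference, with a spread of 4.83% instead of 86.4%.

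Further genes of the 10 most variable were Ubald2, Rnf8-cmtr1, Dusp18, Id1, Fosl2, A330009N23Rik and Gcnt2. Id1, an inhibitor of DNA-binding factors, gave 24.6, 73.6, 302, 175 and 126 normalized counts, and Fosl2 gave 67.1, 116, 347, 431 and 122. Rnf8-cmtr1 was the exception, with 39.7, 80.4, 91.7, 309 and 123, since only sort 4 was set apart. A330009N23Rik (chr15:101221195-101225186) overlaps the start of Grasp (chr15:101224188-101232756), and the strand of counting is not stated, so that their reads cannot be told apart in the shared stretch. Of all 10 genes 9 had sorts 3 and 4 as the highest and 9 had sort 1 as the lowest.

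**Figure D5:**
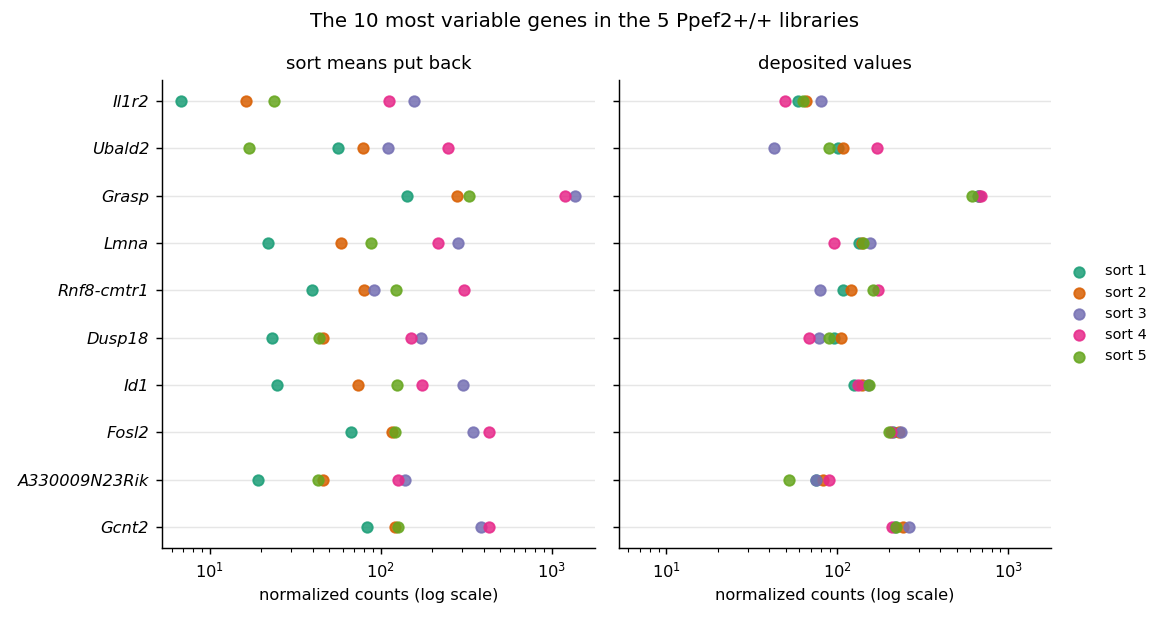
Normalized counts (log scale) of the 10 most variable genes in the 5 Ppef2+/+ libraries, with sort means put back (left) and as deposited (right), 1 point per sort. On the left, sorts 3 and 4 lie above the other sorts in 9 of 10 genes (Il1r2 at 156 and 113 against 6.85 to 23.9), and on the right these differences are largely gone.

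Single genes with this pattern are given next. They were chosen after their values were seen and stand for no group. The nuclear receptor gene Nr4a2 gave 311, 447, 1203, 1433 and 556 normalized counts with sort means put back, the transcription factor gene Irf4 gave 199, 387, 696, 763 and 365, and Nfil3 gave 171, 315, 708, 719 and 391. In all 3 sort 1 was the lowest. Cd274 gave 298, 439, 921, 970 and 434, Il12b gave 296, 278, 652, 677 and 297, and the chemokine gene Cxcl10 gave 72.6, 110, 295, 213 and 138. For Cd274 and Il12b, sorts 3 and 4 were thus more than 2 times the other sorts. Ctla4, a receptor that takes up B7 ligands, gave 27.4, 51.8, 164, 180 and 71.7. Slc40a1, the iron exporter ferroportin, was different, with 151 normalized counts in sort 2 and 45.1 to 59.8 in the other sorts.

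By list, sorts 3 and 4 were the highest in 5 of 6 chemokine genes with whole reads and a mean of at least 50 normalized counts, in 3 of 5 immediate early genes, in 28 of 67 transcription factor genes (41.8%), in 5 of 12 genes of costimulation, in 3 of 8 genes of cathepsins and cystatins, in 4 of 12 genes of Toll-like receptors and adaptors and in 2 of 8 cytokine genes, compared to 16.6% of all such genes. Lists of other functions had such shares too, with 4 of 12 genes of the NADPH oxidase and cross-presentation traffic and 3 of 9 histone genes. The same held for 6 of 22 cytokine and growth factor receptor genes and 3 of 11 genes of glycolysis. Lower shares were found in 2 of 17 interferon-stimulated genes (11.76%), a list that holds Cxcl10, and in 6 of 71 genes of mitochondrial ribosomal proteins (8.45%). Not every list is named here. The normalized counts of the 5 immediate early genes added up to 946, 1215, 2309, 2968 and 1341 with sort means put back. As they include Fosl2, which was named above for this pattern, the sum is no separate result. The abundant immediate early genes such as Fos and Jun could not be examined, since their reads were not calculated back. In contrast, the pattern was found in 2 of 73 genes of the respiratory chain (2.74%), in 1 of 40 proteasome genes (2.5%) and in 1 of 26 genes of cell cycle and replication. Of 24 cDC1-associated genes only 7 had reads, and none of these showed the pattern. They are too few to set against the 16.6% of all genes. Of the 2 cDC1 markers with reads, Batf3 was highest in sort 5 and Itgae too. Markers of other cell types were examined beside it, as sums of the normalized counts of all genes of a list in the table with whole reads. For the NK cell list, the sums were 616, 630, 765, 733 and 676 in sorts 1 to 5, and for the cDC2 list, which holds Irf4, they were 2268, 2530, 2888, 2995 and 2434. In both lists sorts 3 and 4 were the highest. Of the 7 cDC2 genes with a mean of at least 50 normalized counts, 2 (28.57%) had sorts 3 and 4 as the highest, Irf4 and Sirpa. Among all such genes the share was 16.6%. Sirpa gave 278, 297, 398, 442 and 311. Cd209a, another of the 7, was lowest in sorts 3 and 4, with 148, 173, 88.7, 118 and 136. For the macrophage and monocyte list the sums were 2338, 2868, 2745, 2569 and 2775, with sort 2 the highest. For the B cell list they were 288, 323, 295, 274 and 333, with sort 5 the highest. Sorts 3 and 4 were also the shallowest and the deepest library. The part of depth and of transcripts of NK cells or cDC2 in this pattern was not tested.

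Among the 5 Ppef2+/+ libraries, reads of pancreatic enzymes were found mostly in 1. The genes of the pancreatic acinar list with a row added up to 180 reads in sort 2 and to 7, 2, 7 and 8 reads in sorts 1, 3, 4 and 5. Amy2a5, which encodes pancreatic amylase, had 68 reads in sort 2 and 0 in sorts 1, 3, 4 and 5. Cpb1 had 21 reads in sort 2, 1 in sort 5 and 0 elsewhere, and Ctrb1, Cela2a and Prss2 had 17, 16 and 12 reads in sort 2 and 0 in all others. The deposited values of Amy2a5 did not show this, as they were 1.0, 122, 75.1, 76.0 and 1.0. Of 23 pancreatic acinar genes 12 had a row, and their sum with sort means put back was 245 normalized counts in sort 2 and 3.01 to 9.58 in the other sorts. None of these genes reached the median level of all genes. Their means with sort means put back were 18.5 for Amy2a5 and at most 5.93 (Cpb1) for the others. Genes were removed only if their mean was under 10 in both genotypes. Rows of such genes can therefore come from the Ppef2−/− libraries, and their number does not describe the Ppef2+/+ libraries alone.

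Promoter letters were also counted in the most abundant genes as a group. Of the 100 genes with the highest level, 61 had exactly 1 RefSeq window. TATAAA was found in 14.8% of them, compared to 6.26% of 6785 other genes of the table and 14.8% of all annotated genes. CCAAT was found in 41% compared to 40.2%, and GGGCGG in 57.4% compared to 66.9% of the other genes. The ETS-type motif CCGGAAGT was found in 9.84% and 9.83%, and GAGGAAGT, a form of the PU.1 motif, in 1.64% and 3.54%. Pairs of GAAA separated by 2 bases, as in the interferon-stimulated response element, were found in 9.84% compared to 3.4%. The cyclic AMP response element TGACGTCA, which was added after the data had been seen, was found in 11.5% compared to 3.39%, and the AP-1 motif TGACTCA in 1.64% compared to 3.2%. In the 67 most variable genes with 1 window these were 8.96% and 5.97%. Each of these shares in the top genes rests on at most 35 genes and was not tested.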

How the data were processed

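Messenger RNA of splenic CD8+ cDC1 was sequenced with 50 bp single-end reads. Per the study's methods, reads were aligned to mm10 with HISAT, whereas the submitters' processing notes name TopHat2 2.0.3. The authors counted reads per RefSeq gene in Partek 6.6, normalized the counts with DESeq2, set values below 1 to 1 and removed genes with a mean under 10 in both genotypes. The deposited values are this normalized signal with the mean of each sort removed, not raw counts. The step that removed the sort means is not named in the sources used here. Of the per-sample columns 0 were left without use. A strand setting is not stated.

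Levels were calculated with GENCODE M21, by symbol (10392 genes) or older symbol (307), 68 genes being without a match and 11 left out as shorter than 200 bases. Whole reads were calculated back for 9627 genes from the value of 1 read in each library (1.37, 1.36, 1.50, 0.924 and 0.996 normalized counts in sorts 1 to 5) and the constant sum of both genotypes in a sort. They hold 38.6% of the summed normalized counts. When the values of 1 sort were taken from another gene, 6 of 3861 genes still gave whole reads. That control took only genes of low mean, so it does not cover the more abundant genes with whole reads. On simulated data 9301 of 9301 genes were solved to the reads that had been drawn. The simulated libraries were drawn independently, without differences shared within a sort. The spread they were drawn with was smaller than that of the most variable genes, which the simulation thus does not cover. Values were described by mean, SD and rank with Python 3.11.15, pandas 2.3.3 and numpy 2.4.6, without tests, and n = 5 sorts.

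The members and lists were chosen with earlier results of these data known. Named genes are the cDC1 markers, the gate genes and Ppef2, the 25 highest genes by level, the 5 highest members of each list, lineage genes above the median, the 10 most variable genes and the 5 highest non-coding genes. Others named, among them low members of lists, genes without a row, and Cd274, Nr4a2, Nfil3, Ctla4 and Slc40a1, were chosen after their values were seen. Values of some list members are not reported here. Alternatives were other lengths, no division by length, log2 means with pseudocounts 1 and 10, a minimum mean, deposited values, and each sort left out.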

Additional observations from a re-analysis of the deposited data

Results flagged for a closer look

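In 130 groups of 5 libraries (114 genes and 16 list sums with whole reads) the highest or lowest sort was examined for a distance from the others above Dixon's critical ratio of 0.71. It was exceeded in 11, where chance gives about 1 in 20, or 6.5. All values are normalized counts with sort means put back.

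In 6 of them sort 2 was high. Amy2a5 had 92.7, Ctrb1 23.18, Cela2a 21.81 and Prss2 16.36 in sort 2, and each had 0 in the other sorts. The sum of the pancreatic acinar list was 245.4 in sort 2 and at most 9.583 elsewhere, and it holds these 4 genes, so that the 5 are not independent. The sum of the 2 neutrophil genes in the table was 34.08 in sort 2 and 17.56 to 20.53 elsewhere.

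In 3 of them sort 5 was high. The globin genes Hba-a1 and Hba-a2, which share reads, had 124.5 and 87.64 in sort 5, compared to 46.54 to 68.39 and 32.86 to 48.06 in the others. The B cell gene Ms4a1 had 164.3 in sort 5 and 131.2 to 139.8 in the others.

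In 2 of them sort 3, the shallowest library, was low. The transferrin receptor gene Tfrc had 302.1 in sort 3 and 376.5 to 390.4 in the others, and the phosphatase gene Ppp1cc had 655.4 compared to 746.9 to 781.1.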

How the results depend on the processing

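No paired analysis was possible because no groups were compared. The share of the 100 highest genes (37.75% of the summed level) was 38.2% with exonic bases merged over transcripts, 40.54% with lengths reduced by 200 bases, 38.22% in genes with a mean of at least 50 and 26.18% without division by length, and 37.62% to 37.84% when a sort was left out, which could hardly change it, since sort means had been removed from the deposited values. Without division by length 615 instead of 241 genes held 50%. The median of the cDC1 markers, 19.21 times that of all genes, was 28.39 times with merged exons, 23.48 times without division by length and 13.54 times in genes with a mean of at least 50. The median spread between sorts, 11.7%, was 6.986% in deposited values and, as an alternative added after seeing the data, 8.851% in genes with a mean of at least 250. Ranked on deposited values, also added later, 18 instead of 77 of the 100 most variable genes had sorts 3 and 4 as the highest, since the deposited values hold no sort means. In genes with a mean of at least 250 they were 89. Of 50 single-gene levels 41 moved by more than their spread without division by length and 37 with merged exons. For genes without whole reads this spread was that of the deposited values, which hold no sort means. Such genes could thus count as moved more easily. Reads of genes with 1000 or more normalized counts were not calculated back, so that their spread between sorts is unknown.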
